A study of Monodelphis domestica and Mus musculus with 2 samples.

Results

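Corticothalamic neurons of layer 6 (L6CT) were described in the primary visual cortex (V1) of the mouse. The cells were chosen by the labels deposited with the data, namely cells of the V1 regions that passed the filter on low-quality cells and carried both the subclass label L6CT and the class label glutamatergic. This gave 1156 cells of the 9127 V1 cells that passed, or 12.7% (95% exact Clopper-Pearson interval 12.0 to 13.4), and 21.7% (20.6 to 22.9) of the 5322 glutamatergic cells with a subclass. Both sections of the series, mouse and opossum, held 200608 segmented cells.

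In Stereo-seq, polyadenylated RNA from a section is caught by an array of DNA spots whose barcodes record where each molecule lay. Molecules are counted by their unique molecular identifiers (UMIs), which are then added up within cells outlined on an image. The mouse material was a single 10 µm section of 1 adult wild-type C57BL/6J male of about postnatal day 40, cut from a block that held several coronal slices, and 4 V1 regions were analysed. The design text of the record gives 1 section for each species, whereas a figure legend of the study speaks of several for the V1 regions, and the files used here do not settle this. The opossum (Monodelphis domestica) material was from 1 adult male of 6 months, with 3 V1 regions and 565 L6CT cells. Each species was represented by 1 animal, so the regions are parts of 1 brain, no test between conditions was possible, and every interval covers counting error only.

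Corticothalamic neurons are the glutamatergic cells of layer 6 that send axons to the thalamus, where in the visual system they contact relay cells of the lateral geniculate nucleus and cells of the thalamic reticular nucleus. Their axons also leave branches in layer 4 on the way. They share layer 6 with intratelencephalic neurons (L6IT), which project within the cortex, and are known for the transcription factor Foxp2, the corepressor Tle4, the cell-cycle inhibitor Rprm and the heparan sulfate sulfotransferase Hs3st4.

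The L6CT cells were spread over the 4 regions as 499, 192, 210 and 255 cells, which was 14.1%, 12.2%, 11.0% and 12.2% of the cells of each region. Their median depth of sequencing was 1576.5 UMIs per cell (interquartile range 1132 to 2041), and together they held 1874367 UMIs. The 407 L6IT cells, the subclass nearest to them in cortical depth, had a median of 1482 UMIs and 635160 UMIs in all. The counts of the remaining glutamatergic subclasses were 1406 cells for L2/3, 1879 for L4, 133 for L5IT, 256 for L5PT, 59 for L5NP and 26 for L6b, so levels in L5NP and L6b rest on few cells.

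Position was not used to give the labels, and it was examined first. Depth was measured down from the upper edge of each region and scaled to the tallest region, of 774 µm. L6CT cells had a median depth of 655 µm, with an interquartile range of 583 to 706 µm. The medians of the 4 regions, at 648, 663, 659 and 662 µm, differed by far less than the spread of the cells within a region. L6IT cells lay above them at a median of 555 µm, with region medians of 553, 578, 573 and 538 µm, so the region medians of L6CT and L6IT did not overlap. L5PT cells, which project below the forebrain, had a median of 423 µm.

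**Figure D1:**
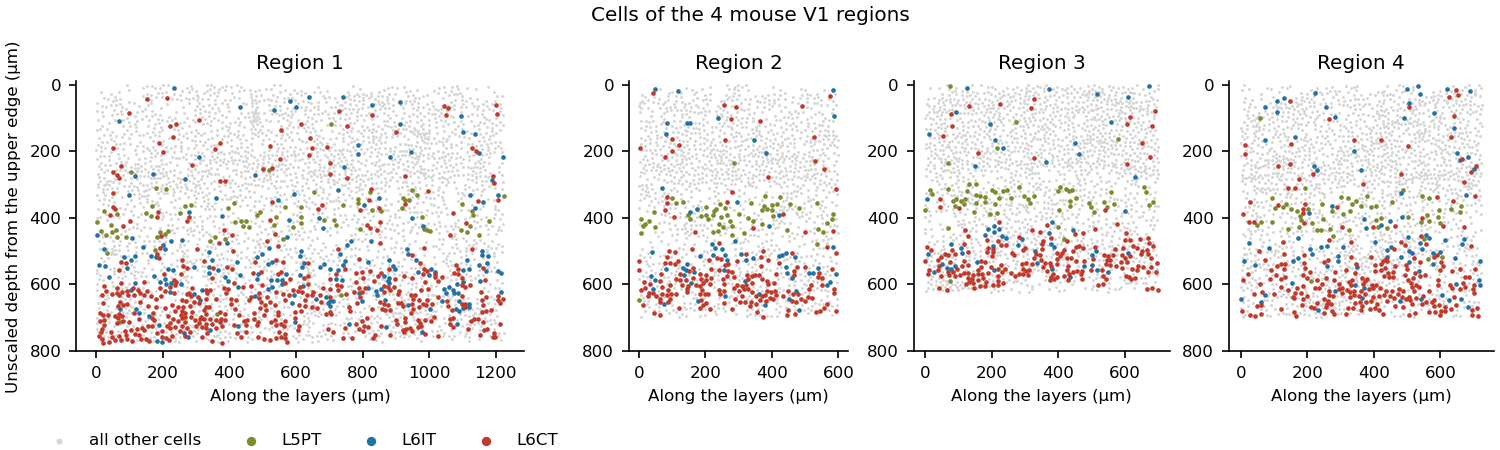
Position of every cell in the 4 mouse V1 regions, with distance along the layers on the x axis and unscaled depth from the upper edge on the y axis, both in µm. L6CT cells (red) form a band at the bottom of each region, L6IT cells (blue) lie mostly in its upper part and above it, and 144 of the 1156 L6CT cells lie above the median depth of L5PT cells (green).

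The share of L6CT cells among all V1 cells rose steeply in the lowest part of the cortex. In 10 equal depth bins it was 2.09% (1.24 to 3.28) in the uppermost bin, 4.68% in bin 6 and 6.83% in bin 7, and then 22.4% (19.7 to 25.3), 42.2% (39.0 to 45.4) and 38.9% (35.8 to 42.2) in the last bins. Among glutamatergic cells with a subclass, L6CT made up 46.8%, 74.5% and 81.6% of bins 8, 9 and 10. L6IT cells peaked in bin 8, with 120 cells, and fell to 33 cells in bin 10, where 354 cells were L6CT.

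The same label was common among the neighbours of L6CT cells. Of the 10 nearest cells to each L6CT cell, 34.1% (33.2 to 34.9) carried the same label, against 12.7% of all V1 cells, a ratio of 2.69. The same cell can be a neighbour of several L6CT cells, so this interval is too narrow. The share was 33.7%, 34.7%, 36.0% and 32.7% in the 4 regions. L6CT cells were 22.4%, 42.2% and 38.9% of all cells in depth bins 8, 9 and 10, so this share was not told apart from shared depth. The same ratio was 6.71 for L5PT and 2.99 for L5IT, and 1.84 to 2.35 for L5NP, L4, L2/3 and L6IT. Non-neuronal cells made up 24.3% of the neighbours of L6CT cells and L6IT cells 7.12%. L6IT cells had more L6CT neighbours (20.1%) than neighbours of their own label (10.5%), but L6CT made up 12.7% and L6IT 4.46% of V1 cells. The distance from an L6CT cell to its nearest cell had a median of 12.0 µm, and that to the farthest of the 10 was 29.0 µm.

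The label was then set against its 4 markers. Foxp2 (chromosome 6 from 14901287 to 15441976, GRCm39 coordinates of the GENCODE annotation), a forkhead transcription factor, was at 1.82, 1.87, 2.19 and 1.94 UMIs per 10000 in the L6CT cells of regions 1 to 4. In L6IT cells it was at 0.43, 0.30 and 0.44 in regions 1, 2 and 4 and had no UMI in region 3, which allows a level of up to 0.331. The 2 sets of values did not overlap, and the pooled levels were 1.93 (1.73 to 2.14) and 0.35 (0.22 to 0.52). Hs3st4 (chromosome 7 from 123582092 to 123998212), which adds a sulfate group to heparan sulfate chains, was at 7.42, 7.23, 4.99 and 5.02 in L6CT cells and at 1.21, 1.29, 1.10 and 1.02 in L6IT cells. L6CT cells of regions 1 and 2 thus held more Hs3st4 than those of regions 3 and 4, and all of them lay above L6IT.

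Tle4 (chromosome 19 from 14425417 to 14575572), a corepressor of the Groucho family, was at 1.98, 2.97, 2.72 and 1.87 in L6CT cells, and its pooled level was 2.27 against 0.96 in L6IT cells. Rprm (chromosome 2 from 53974105 to 53975564) was at 4.41, 3.19, 4.85 and 6.06 in L6CT cells. L6IT cells had 2.03, 1.48, 2.65 and 2.83 UMIs of Rprm per 10000, so region 2 was lowest and region 4 highest in both subclasses. All 4 markers had their highest level of the 8 glutamatergic subclasses in L6CT. Hs3st4 in the 26 L6b cells, at 6.00 (3.76 to 9.08), was not distinguishable from the 6.39 (6.03 to 6.76) of L6CT at this depth. The summed level of the markers was 15.2 in L6CT cells, with 14.8 to 15.6 over the regions, against 4.68 in L6IT cells, 3.00 in all other glutamatergic cells and 5.42 in non-neuronal cells.

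**Figure D2:**
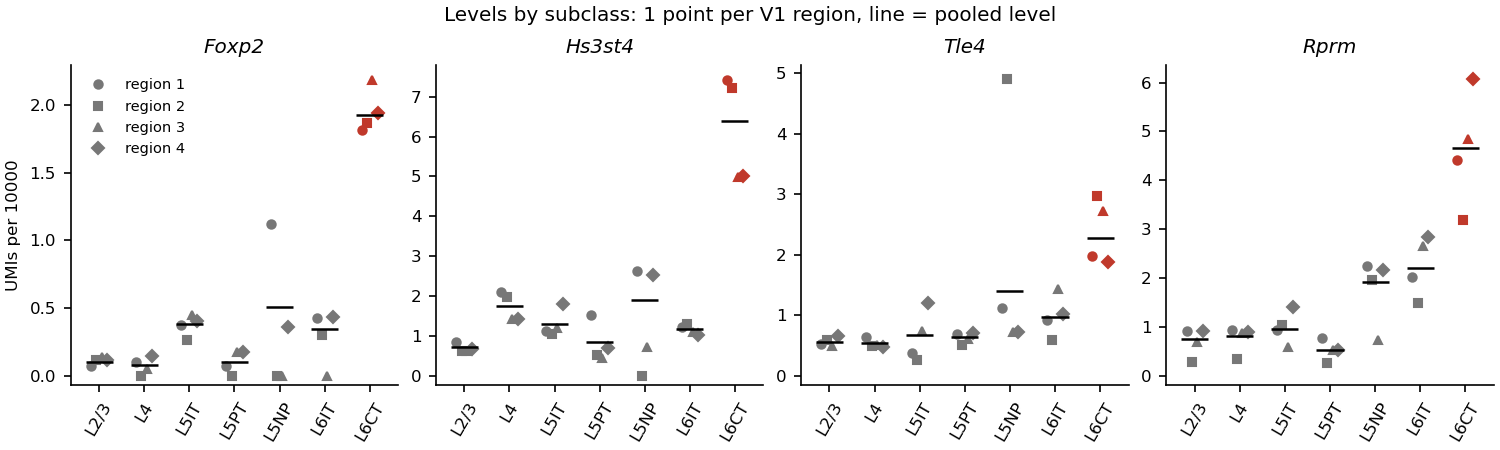
Level of the 4 marker genes in UMIs per 10000 on the y axis, for 7 glutamatergic subclasses on the x axis, with 1 point per V1 region and a line at the pooled level. The L6CT points of Foxp2 and Hs3st4 lie above all other points of their panels, whereas those of Tle4 and Rprm vary more between regions, and 1 region of the small L5NP subclass exceeds L6CT for Tle4.

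Across genes, L6CT was compared with L6IT to describe how corticothalamic cells differ from the cells that share their layer. Because the labels were assigned from these same counts, the ratios describe the labelled cells and are no test of a difference. Of 4602 genes with at least 0.5 UMIs per 10000 over glutamatergic cells, 116 (2.52%) were at least 1.5-fold higher in L6CT with that direction in all 4 regions, and 96 (2.09%) were at least 1.5-fold lower. The median ratio was 1.02. Without region 1, when only 3 regions had to share a direction, the counts were 249 and 205.

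Among the genes with the highest ratios was Mgat4c, which encodes an acetylglucosaminyltransferase of N-glycan branching. It was at 3.16, 3.86, 2.10 and 2.35 UMIs per 10000 in L6CT cells of regions 1 to 4 and at 0.36, 0.89, 0.11 and 0.44 in L6IT cells, a pooled ratio of 6.81 (4.63 to 10.4). Zfpm2, a cofactor of GATA transcription factors also called FOG2, was at 2.37, 1.56, 2.16 and 1.75 in L6CT and at 0.39, 0.20, 0.44 and 0.29 in L6IT, a ratio of 5.91 (3.85 to 9.55). Neither gene had overlapping regions between the subclasses. The ratio was 5.56 (3.62 to 8.98) for Foxp2, 5.48 (4.33 to 7.03) for Hs3st4, 2.36 (1.80 to 3.14) for Tle4 and 2.11 (1.76 to 2.54) for Rprm. The classical cadherin Cdh18 was at 4.12, 4.93, 2.78 and 3.06 in L6CT cells against 0.98, 1.39, 0.77 and 0.65 in L6IT cells, a ratio of 3.99 (3.06 to 5.28).

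The homeobox gene Meis2 followed with a ratio of 3.45 (2.35 to 5.24) and 5730522E02Rik with 3.19 (2.20 to 4.78). Garnl3, a protein with a Rap GTPase-activating domain, had a ratio of 2.65 (2.05 to 3.46), and its lowest L6CT region, at 2.49, lay above its highest L6IT region, at 1.39. Gnptab, which makes the mannose 6-phosphate tag of lysosomal enzymes, stood at 2.44, the kainate receptor subunit Grik3 at 2.43 (1.72 to 3.52), the orphan nuclear receptor Esrrg at 2.43 and the coatomer subunit Cope at 2.38. For Esrrg, L6IT region 2, at 0.79, lay above the L6CT cells of regions 1, 3 and 4, at 0.75, 0.70 and 0.54.

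The genes lowest in L6CT relative to L6IT included receptors, channels and adhesion molecules. Il1rapl2, a receptor-like protein of the interleukin 1 family, was at 0.21, 0.25, 0.11 and 0.47 in L6CT and at 2.09, 1.78, 1.55 and 1.09 in L6IT, a ratio of 0.15 (0.10 to 0.21). The sorting receptor Sorcs3 followed at 0.17, and the receptor tyrosine phosphatases Ptprt and Ptprk at 0.19 and 0.27. The netrin receptor Unc5c stood at 0.25, and the cadherins Cdh10 and Cdh13 at 0.26 and 0.41. Kcnip4, which binds the pore subunits of A-type potassium channels, was at 6.20, 8.05, 6.51 and 4.81 in L6CT cells against 22.5, 23.7, 20.1 and 12.9 in L6IT cells, with a ratio of 0.31 (0.29 to 0.34). Kcnq5, a subunit of M-type potassium channels, was at 1.63 against 5.13, a ratio of 0.32 (0.27 to 0.37). Enox1, Tmem108 and the synaptic adhesion protein Lrrtm4 had ratios of 0.36, 0.39 and 0.40.

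Against all other glutamatergic cells together, 102 genes (2.22%) were at least 1.5-fold higher in L6CT with 1 direction in all regions and 180 (3.91%) were at least 1.5-fold lower. Of the 5653969 UMIs of these other cells, L2/3 held 1806834 and L4 held 2395577. Foxp2 led with a ratio of 14.1 (11.0 to 18.3), since the other cells held only 0.15, 0.08, 0.10 and 0.19 UMIs per 10000 in regions 1 to 4. Mgat4c followed at 7.18 (6.14 to 8.42), Cdh18 at 6.59 (5.77 to 7.54), Zfpm2 at 5.79 (4.87 to 6.91), Hs3st4 at 4.95 (4.51 to 5.43), Rprm at 4.91 (4.40 to 5.47) and Tle4 at 3.65 (3.16 to 4.22). For each of these genes the lowest L6CT region lay above the highest region of the other cells. The next were Grik3 and Garnl3, both at 3.55, the ephrin receptor Ephb1 at 3.47, the insulin-like growth factor binding protein Igfbp4 at 3.07 and the transmembrane protein Tmem178 at 2.72.

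Some of these genes were also high in 1 of the small subclasses. Mgat4c was at 3.44 in L5NP against 2.90 in L6CT, Grik3 was at 1.78 in L5NP against 1.41, and Cdh18 was at 5.45 in L6b against 3.77. These values rest on 27, 14 and 20 UMIs, and 26 of the 27 of Mgat4c came from region 1. Without region 1, Mgat4c in L5NP was at 0.19 (0.0049 to 1.08), below the 2.71 of L6CT, Grik3 was at 1.16 against 1.51, and Cdh18 in L6b was at 5.11 (2.72 to 8.74) against 3.52. Foxp2, Zfpm2, Garnl3 and Ephb1 had their highest pooled level of the 8 subclasses in L6CT.

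The lowest ratio to the other glutamatergic cells was that of Hs6st3, a heparan sulfate sulfotransferase, which was at 0.58, 0.74, 0.36 and 0.62 in L6CT and at 5.57, 4.71, 3.38 and 3.70 in the others, a ratio of 0.13 (0.10 to 0.15). Hs3st4 and Hs6st3, which modify the same sugar chain at different positions, thus stood at opposite ends of the list. The layer 4 transcription factor Rorb had a ratio of 0.19 (0.14 to 0.25), the netrin receptor Unc5d 0.20, Pdzrn3 0.21, Prr16 and the potassium channel Kcnb2 0.22 each, the chemokine-like Fam19a1 0.22 and Lingo2 0.24. Against L6IT alone, Hs6st3 and Lingo2 were lower in L6CT in every region. For Rorb, Unc5d, Pdzrn3, Prr16, Kcnb2 and Fam19a1, the direction against L6IT was not the same in every region. Rorb was at 0.34, 0.31, 0.20 and 0.28 in L6CT and at 0.13, 0.30, 0.66 and 0.22 in L6IT.

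L6CT was also set against each subclass on its own. The ratio of Foxp2 was 24.3 to L4, 19.3 to L2/3, 19.0 to L5PT, 5.03 to L5IT and 3.78 to L5NP. L5IT and L5NP thus lay nearer to L6CT in this gene than L4, L2/3 and L5PT, but on few UMIs. In regions 1 to 4 these were 2, 1, 3 and 2 in L5IT and 3, 0, 0 and 1 in L5NP. The ratio of Rprm was lowest to L6IT, at 2.11, and highest to L5PT, at 8.81. For Tle4 it ran from 1.62 to L5NP to 4.24 to L4. Hs3st4 had ratios of 8.81 to L2/3, 7.67 to L5PT, 3.64 to L4 and 3.34 to L5NP.

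Of the 16 genes listed as known markers of corticothalamic neurons besides those of the label, 8 had enough UMIs to be compared. All 8 were past the fold and higher in L6CT than in the other glutamatergic cells, beside 2.22% of all genes, with a median ratio of 2.29 where the median of all genes was 1.01. This is a description and no test of the label, which was given from these counts. The gene lists were chosen with earlier results of these data known. The 8 genes were Zfpm2, Garnl3 and Grik3, the thyroid hormone binding protein Crym (2.15, 1.91 to 2.43), the calmodulin regulator Pcp4 (2.43, 2.26 to 2.61) and the deep-layer transcription factors Fezf2 (1.53), Tbr1 (1.60) and Sox5 (1.64). Against L6IT, 4 of the 8 were past the fold, namely Pcp4 (1.57), Zfpm2, Garnl3 and Grik3, and Sox5 had a ratio of 0.85 (0.66 to 1.11). Fezf2 and Sox5 were higher in L5PT than in L6CT in every region, and the rest of the 8 were lower in L5PT. In regions 1 to 4 Fezf2 was at 1.45, 0.92, 1.57 and 1.32 in L5PT and 0.65, 0.58, 0.62 and 0.88 in L6CT. Sox5 was at 2.36, 3.19, 1.13 and 1.05 in L5PT and 1.57, 1.04, 0.67 and 0.69 in L6CT. Pcp4 overlaps the gene Gm49948 on the same strand, so its count is uncertain.

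The remaining 8 were below the level needed. The neurotensin receptor Ntsr1, a gene widely used to mark these cells, had 24 UMIs in the 1156 L6CT cells, and the synaptotagmin Syt6 had 58. Both were more frequent in L6CT than in the other glutamatergic cells, with ratios of 4.52 (2.31 to 9.11) for Ntsr1 and 8.75 (5.18 to 15.4) for Syt6. Thsd7b, with 236 UMIs, had a ratio of 6.30 (5.01 to 7.95) and Sla, an adaptor of antigen receptor signalling, with 45 UMIs, one of 7.14 (4.09 to 12.9). Nxph3 had a ratio of 2.86 (2.26 to 3.61). The intervals of the others included 1, on 1 UMI for Nxph2 (0.38), 4 for Cpa6 (0.52) and 6 for Gpr139 (3.62).

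Transcription factors were found in both directions. Of 20 with enough UMIs, 9 were past the fold and higher than in the other glutamatergic cells and 5 were lower, beside 2.22% and 3.91% of all genes. The higher ones were Foxp2, Zfpm2, Tle4, Fezf2, Tbr1 and Sox5, the nuclear factor I genes Nfia (2.44, 2.09 to 2.85) and Nfib (1.90, 1.71 to 2.12), and the LIM-only gene Lmo3 (1.68, 1.44 to 1.95). Of these, Fezf2 and Sox5 were higher in L5PT than in L6CT, as given above. The lower ones included Rorb, the upper-layer genes Cux1 (0.46) and Cux2 (0.26, 0.21 to 0.34), and Bhlhe22 (0.35). Against L6IT, Foxp2, Zfpm2, Tle4, Nfia (1.74) and Nfib (1.58) were higher and Bhlhe22 (0.65) was among the lower ones, and Cux2 and Rorb were not past the fold.

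The median ratio of the ionotropic glutamate receptor genes was 0.81 to L6IT and 1.06 to the other glutamatergic cells, and that of the metabotropic ones 0.74 and 0.73, beside 1.02 and 1.01 for all genes. Of all genes, 2.52% were past the fold and higher than in L6IT and 2.09% lower, and 2.22% and 3.91% against the others. Of 11 ionotropic subunits, Grik3 was higher against both groups, Gria4, a subunit of AMPA receptors, was lower against both (0.46, 0.37 to 0.56, for L6IT), and the kainate subunit Grik4 was 1.57-fold higher than in the other glutamatergic cells and at 0.69 of L6IT. Of 5 metabotropic receptors, Grm7 was at 0.62 of L6IT and 0.40 of the others, and Grm8 was 2.40-fold higher (2.05 to 2.81) than in the others. Of 12 GABA receptor subunits none was past the fold in the higher direction, where 2.52% of all genes were higher than in L6IT and 2.22% higher than in the others, so a count of 0 is near the share of all genes. Gabra2 was lower against both groups (0.43 for each), Gabrg3 was at 0.51 of L6IT and Gabrd at 0.64 of the others. Of 36 receptors for modulators such as acetylcholine, serotonin and noradrenaline, only 5 had enough UMIs, and none of them was past the fold.

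Among 28 potassium and HCN channel genes, the 2-pore channel Kcnk1 was higher than in L6IT (1.95, 1.39 to 2.80) and than in the others (1.60). With 2.52% and 2.22% of all genes higher, 1 of 28 is near the share of all genes. Kcnip4, Kcnq5 and the auxiliary subunit Kcnab1 (0.54) were lower than in L6IT, and Kcna2, Kcnb2, Kcnip4 and Kcnq5 were lower than in the others. These were 3 and 4 of 28, beside 2.09% and 3.91% of all genes. Of 18 sodium and calcium channel genes none was past the fold in the higher direction, again near the share of 2.52% and 2.22% among all genes. The T-type channel Cacna1g (0.46, 0.33 to 0.64), the N-type channel Cacna1b (0.62) and the auxiliary subunits Cacna2d3 (0.46) and Cacnb2 (0.58) were lower than in L6IT, and Cacna2d3 (0.28, 0.24 to 0.34) and Cacnb2 (0.59) were lower than in the other glutamatergic cells. These were 4 and 2 of 18, beside 2.09% and 3.91% of all genes.

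Of 35 adhesion and guidance genes, 4 were higher and 11 were lower than in the other glutamatergic cells, and 1 was higher and 5 were lower than in L6IT. Among all genes the shares were 2.22% and 3.91% against the others and 2.52% and 2.09% against L6IT, so 1 of 35 is near that of all genes. The median ratio was 0.82 to the others and 0.77 to L6IT. The 4 higher ones were Cdh18, Ephb1, the secreted semaphorin Sema3e (2.63, 2.17 to 3.19) and the synaptic adhesion protein Lrrtm2 (1.82). Sema3e was not higher than in L6IT, where its ratio was 0.74 (0.58 to 0.96). Genes lower than in L6IT were Slit3, Plxna4, Cdh10, Cdh13 and Cntn5, with ratios from 0.26 to 0.58. Of 23 genes for calcium-binding proteins and regulators of CaM kinase, Pcp4, Hpcal4 and Ncald were higher than in the others, and Calb1, Camk2d, Camk2n1 and Camk2n2 were lower. These were 3 and 4 of 23, beside 2.22% and 3.91% of all genes. Among 20 genes of vesicle release only the synaptotagmin Syt7 was past the fold (1.65 for L6IT and 1.71 for the others), and 1 of 20 is near the share of all genes. Of 15 immediate early genes, Homer1 was 1.59-fold higher (1.41 to 1.80) than in L6IT, and none was past the fold against the others. For 15 genes, counts of 1 and 0 are near the shares of all genes. Fos and Arc had ratios of 1.12 and 1.10 to L6IT.

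UMIs assigned to an outlined cell need not come from that cell, so levels in L6CT cells were set beside those in the non-neuronal cells around them. Between the quartiles of L6CT depth there were 578 L6CT cells and 340 cells of non-neuronal class, and 669 cells of non-neuronal class lay above the 10th percentile of L6CT depth, at 363 µm. A group of genes was much higher in L6CT cells than in these neighbours. Cdh18 was at 3.59 against 0.72 UMIs per 10000, a ratio of 4.99 (3.52 to 7.27), Mgat4c had a ratio of 4.59 (2.95 to 7.49), Zfpm2 one of 4.58 (2.98 to 7.38), Foxp2 one of 3.69 (2.48 to 5.69) and Hs3st4 one of 3.20 (2.57 to 4.04). Garnl3 and Tle4 had ratios of 2.21 and 2.02.

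A second group was about as high in the non-neuronal cells of that depth as in the L6CT cells. Rprm was at 5.13 in L6CT and 4.43 in non-neuronal cells, a ratio of 1.16 (0.99 to 1.36), although non-neuronal cells above held only 0.79. Pcp4 had a ratio of 1.13 (0.99 to 1.28), Igfbp4 one of 1.05 (0.84 to 1.31), Lmo3 one of 1.07 (0.81 to 1.44), Fezf2 one of 0.93 (0.56 to 1.57) and Tbr1 one of 0.76 (0.59 to 0.98). Within non-neuronal cells, the level at L6CT depth over that above was 5.59 (4.17 to 7.59) for Rprm, 4.32 for Igfbp4, 3.88 for Pcp4 and 3.90 (1.88 to 8.69) for Foxp2, but 0.84 (0.48 to 1.43) for Zfpm2 and 1.21 (0.66 to 2.18) for Mgat4c. The vesicular glutamate transporter Slc17a7, a gene of glutamatergic neurons, had a ratio of 1.10 (0.99 to 1.22) between L6CT and these non-neuronal cells. The source of these UMIs was not tested. The non-neuronal class included 73 cells of all V1 depths that carried the subclass label L6CT.

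**Figure D3:**
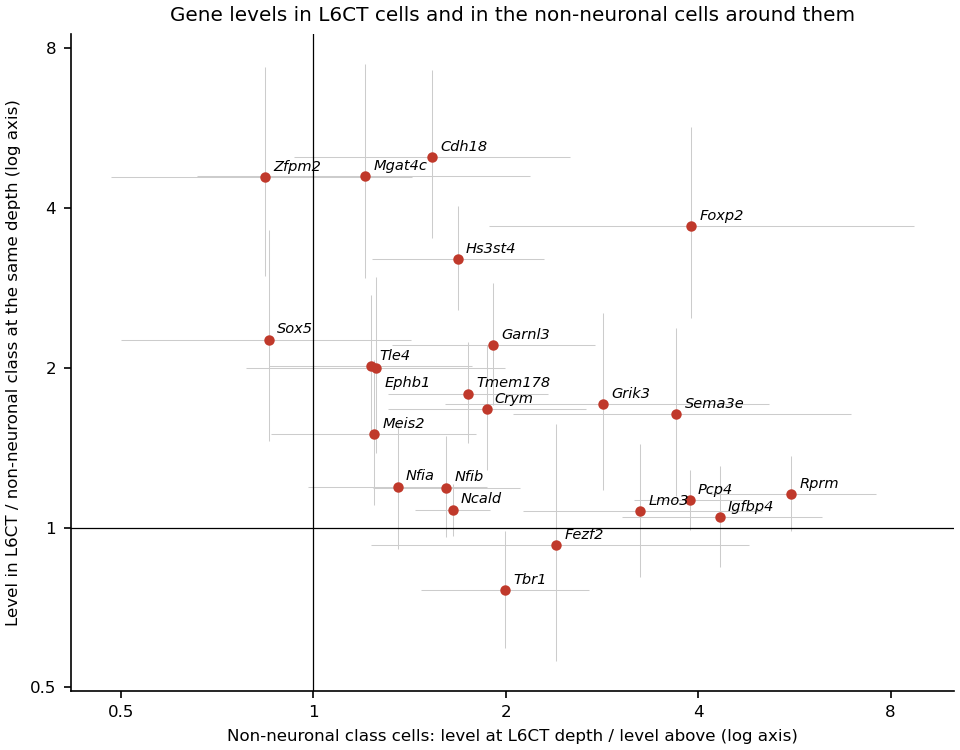
Each point is a gene, with its level in non-neuronal cells at L6CT depth over that in non-neuronal cells above on the x axis, its level in L6CT over non-neuronal cells at the same depth on the y axis, both on log scales, and 95% counting intervals as bars. Zfpm2, Mgat4c, Cdh18 and Hs3st4 lie above 3 on the y axis and below 2 on the x axis, whereas Rprm, Igfbp4 and Pcp4 lie near 1 on the y axis and above 3 on the x axis, and Foxp2 is high on both.

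Along depth, Rprm ran in parallel in the 2 sets of cells. In successive zones that end at 200, 350, 500, 600, 700 and 774 µm, its level in L6CT cells was 0.42, 1.07, 1.25, 1.98, 5.08 and 6.61, and in non-neuronal cells 0.92, 0.71, 1.19, 1.92, 4.38 and 5.63. In the 4 upper zones the intervals of both sets overlapped. Cdh18 in L6CT cells showed no such course and was at 3.66, 4.29, 3.18, 4.67, 3.65 and 3.64, against 0.44 to 0.84 in non-neuronal cells. Mgat4c was higher in the upper L6CT cells, at 6.75, 5.37 and 6.08, than in the lower ones, at 2.56, 2.14 and 2.92. The 62 and 49 cells of the upper zones carried 48 and 25 of these UMIs.

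**Figure D4:**
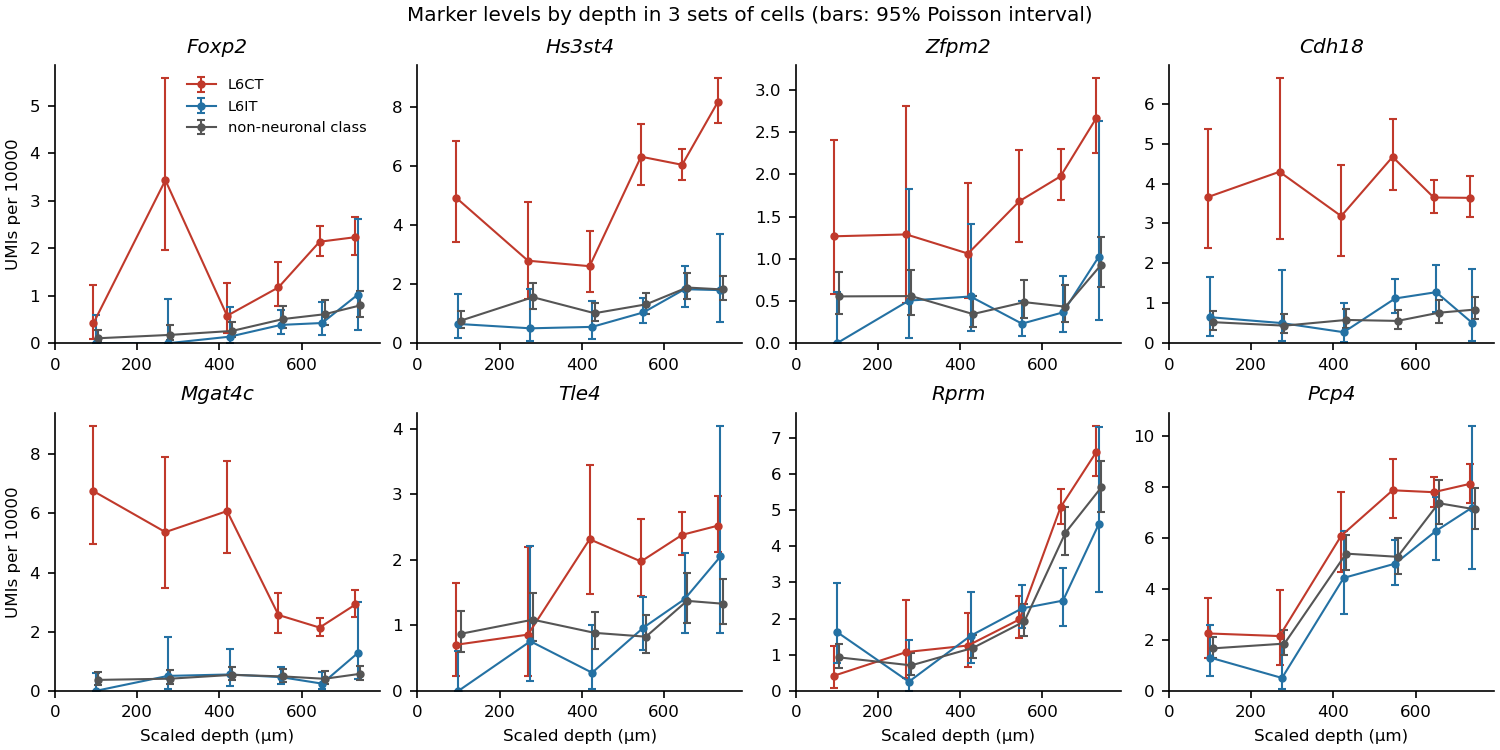
Level of 8 genes in UMIs per 10000 on the y axis against scaled depth in µm on the x axis, in L6CT cells (red), L6IT cells (blue) and cells of non-neuronal class (grey), with 95% Poisson intervals as bars. Rprm and Pcp4 are higher in the lowest than in the uppermost zone in all 3 sets of cells, whereas Cdh18 stays between 3.18 and 4.67 in L6CT cells at every depth.

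Of the L6CT cells, 144 (12.5%, 10.6 to 14.5) lay above the median depth of L5PT cells, outside layer 6 as drawn by position. They had a median of 1082 UMIs per cell against 1653.5 in the 1012 deeper cells. Only 4 of them were labelled in round 1 of the authors' 3 labelling rounds, in which all nearest reference cells had to agree, against 448 of the deeper cells. Foxp2 was at 1.40 (0.89 to 2.10) in these upper cells and 1.98 (1.77 to 2.20) in the deeper ones, against 0.10 in the other glutamatergic cells of the same upper depths, but 19 of its 23 UMIs in the upper cells came from region 1. Rprm was at 0.85 (0.47 to 1.43) against 5.02, close to the 0.65 of other upper glutamatergic cells. Mgat4c was at 6.50 (5.33 to 7.86) against 2.55, with 5.67, 7.43, 9.47 and 6.30 in the upper cells of regions 1 to 4. The layer 4 gene Rorb and the layer 2/3 gene Cux2 were at 1.16 and 1.46 in the upper L6CT cells, 0.21 and 0.29 in the deeper ones and 1.82 and 1.78 in other upper glutamatergic cells. Because the labels were given from these counts, the contrast with other upper cells is a description.

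Labelling rounds divided the L6CT cells into 452 of round 1, 558 of round 2 and 146 of round 3, at median depths of 678, 646 and 540 µm. Round 1 held 43.5%, 44.8%, 37.1% and 27.8% of the L6CT cells of regions 1 to 4. Hs3st4 was at 10.5 (9.84 to 11.3), 3.58 (3.19 to 4.00) and 2.11 (1.53 to 2.84) in the 3 rounds, and Foxp2 at 2.74, 1.43 and 0.83. Rprm was at 4.70, 5.20 and 2.11, with overlapping intervals of 4.24 to 5.20 and 4.73 to 5.70 for rounds 1 and 2. The rounds were set by these counts, and the values are a description.

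The deposited type labels gave a further division. Of the 1156 cells, 474 had an L6CT type, 302 another type and 380 none. L6CT_B held 389 cells at a median depth of 666 µm and L6CT_C held 67 cells at 723 µm. These labels too were set by the counts. Mgat4c was at 12.3 (10.4 to 14.3) in L6CT_C and 1.22 (0.97 to 1.51) in L6CT_B. Hs3st4 was at 15.6 (13.5 to 17.9) in L6CT_C and 8.90 (8.21 to 9.63) in L6CT_B, and Zfpm2 at 6.36 and 2.83. Syt6 was at 0.58 (0.41 to 0.79) in L6CT_B and had no UMI in L6CT_C, which allows a level of up to 0.236. The 18 cells of L6CT_A had 19.5 UMIs of Mgat4c per 10000 (14.1 to 26.1), on 44 UMIs.

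A microglial type label, Micro, was carried by 205 of the L6CT cells. Summed over 5 microglial genes, their level was 1.32 (0.97 to 1.76), against 0.77 (0.58 to 1.00) in L6CT_B and 5.38 (4.44 to 6.47) in cells of the subclass Micro. Rprm was at 5.25 and Foxp2 at 1.32 in these 205 cells. Markers of other cell types were also counted in L6CT cells, as sums over all cells of a group. The 6 oligodendrocyte genes summed to 30.3 in L6CT (27.6 to 35.2 over the regions), 24.7 in L6IT, 19.3 in the other glutamatergic cells and 80.1 in oligodendrocytes, and none was at 0. Mbp and Mobp, genes of myelin, were 1.58-fold and 1.87-fold higher in L6CT than in the other glutamatergic cells. The part of oligodendrocyte RNA in the other ratios was not tested. The 7 genes of GABAergic cells summed to 9.11 in L6CT and 10.6 in the other glutamatergic cells, the 5 of astrocytes to 4.47 and 4.73, the 5 of microglia to 1.00 and 1.06 and the 4 of endothelial cells to 1.00 and 1.25.

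L6CT cells were next divided at the median depth of their region into 579 lower and 577 upper cells. Of the 4602 genes, 76 (1.65%) were at least 1.5-fold higher in the lower cells with 1 direction in every region and 100 (2.17%) were at least 1.5-fold higher in the upper cells. Without one or another of the regions, the counts were 111 to 182 and 156 to 220. The lower cells held more round 1 labels, 49.1% against 29.1%, and had a median of 1649 UMIs against 1531. To see which differences were shared with the surroundings, the same split was made for all other cells in the depth range of the L6CT cells from their 10th to their 90th percentile. It gave 521 lower and 2272 upper other cells, and that range held 462 lower and 460 upper L6CT cells.

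Robo1, a receptor for Slit proteins, was at 0.60, 0.91, 0.72 and 0.57 in the lower L6CT cells of regions 1 to 4 and at 0.27, 0.37, 0.23 and 0.26 in the upper ones, a ratio of 2.41 (1.5 to 3.99). In the other cells its ratio was 0.45 (0.30 to 0.66), in the opposite direction. The cadherin Cdh6 had a ratio of 2.52 (1.33 to 5.03) on 52 UMIs in L6CT and 0.70 (0.42 to 1.12) in the other cells. The adhesion molecule Dscaml1 stood at 2.22 (1.62 to 3.06) and at 1.39 (1.06 to 1.79) in the other cells, and U2surp and Smad3 at 2.15 and 2.02, with 1.05 and 1.18 in the other cells. Rprm, at 2.11 (1.83 to 2.45) in L6CT, had a ratio of 2.90 (2.54 to 3.31) in the other cells, and Foxp2, at 1.67 (1.34 to 2.08), one of 1.79. Tle4 was at 2.35 in lower and 2.17 in upper cells.

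Genes higher in the upper L6CT cells included Cux2 (ratio of lower to upper 0.37, 0.21 to 0.63) and the calcium buffer Calb1 (0.40, 0.25 to 0.62). Within the 10th to 90th percentile of depth these ratios were 0.55 (0.29 to 1.03) and 0.69 (0.40 to 1.17), nearer to 1. C130074G19Rik (0.27, 0.14 to 0.49) and Btbd3 (0.42, 0.27 to 0.63) kept ratios of 0.31 and 0.48 in that range, where the other cells had 0.87 and 1.21. Kcnip4 was at 5.02 in the lower and 7.62 in the upper cells, a ratio of 0.66 (0.59 to 0.74), and 0.72 in the other cells. Ddit4l and Ing2 had ratios of 0.41 and 0.43, and of 0.78 (0.31 to 1.92) and 0.65 (0.37 to 1.12) within the 10th to 90th percentile, where the other cells had 0.48 and 0.99.

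L6CT was also compared with the other glutamatergic cells in the opossum section, which played no part in choosing the mouse cells. The opossum comparison cells were of the subclasses IT_A, IT_B, IT_C, L5PT and L5NP. IT_A, IT_B and IT_C are intratelencephalic groups of the opossum, and no counterpart of mouse L6IT or L6b was included. Of 4586 opossum genes above the same level, 219 (4.78%) were at least 1.5-fold higher in L6CT with 1 direction in all 3 regions and 386 (8.42%) were at least 1.5-fold lower. Genes were matched by symbol, and 2335 passed the level in both species. Of the 56 of these that were higher in mouse L6CT, 22 (39.3%) were also higher in the opossum, and these were 19.1% of the 115 higher there, where 4.93% of all 2335 genes were higher. Of the 113 that were lower in the mouse, 61 (54.0%) were also lower in the opossum, which was 31.3% of the 195 lower there, and 8.35% of all were lower. The 2 species were aligned to different genomes and annotations and had different comparison cells. Species, processing and comparison cells cannot be told apart.

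Foxp2 had a ratio of 11.8 (9.73 to 14.5) in the opossum beside 14.1 in the mouse, Zfpm2 4.55 (4.05 to 5.11) beside 5.79, Tle4 3.01 (2.55 to 3.55) beside 3.65 and Garnl3 2.12 beside 3.55. Grik3 (6.64, 5.80 to 7.61, beside 3.55), Nfia (6.20 beside 2.44), Lmo3 (9.43 beside 1.68), Sox5 (3.13 beside 1.64) and Fezf2 (4.26 beside 1.53) had ratios above those of the mouse. Cdh18 was at 1.47 (1.30 to 1.67) beside 6.59, and Ephb1 at 0.67 (0.52 to 0.86) beside 3.47. Syt6 and the neurexophilin Nxph3, which were below the level needed in the mouse, had opossum ratios of 19.1 (13.6 to 27.5) and 12.4 (9.37 to 16.7). Rorb, Unc5d, Pdzrn3 and Prr16 were low in both species, with opossum ratios of 0.30, 0.22, 0.29 and 0.25. Rprm went the other way, with 0.41 UMIs per 10000 in opossum L6CT and 0.70 in the other cells, a ratio of 0.59 (0.41 to 0.83).

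**Figure D5:**
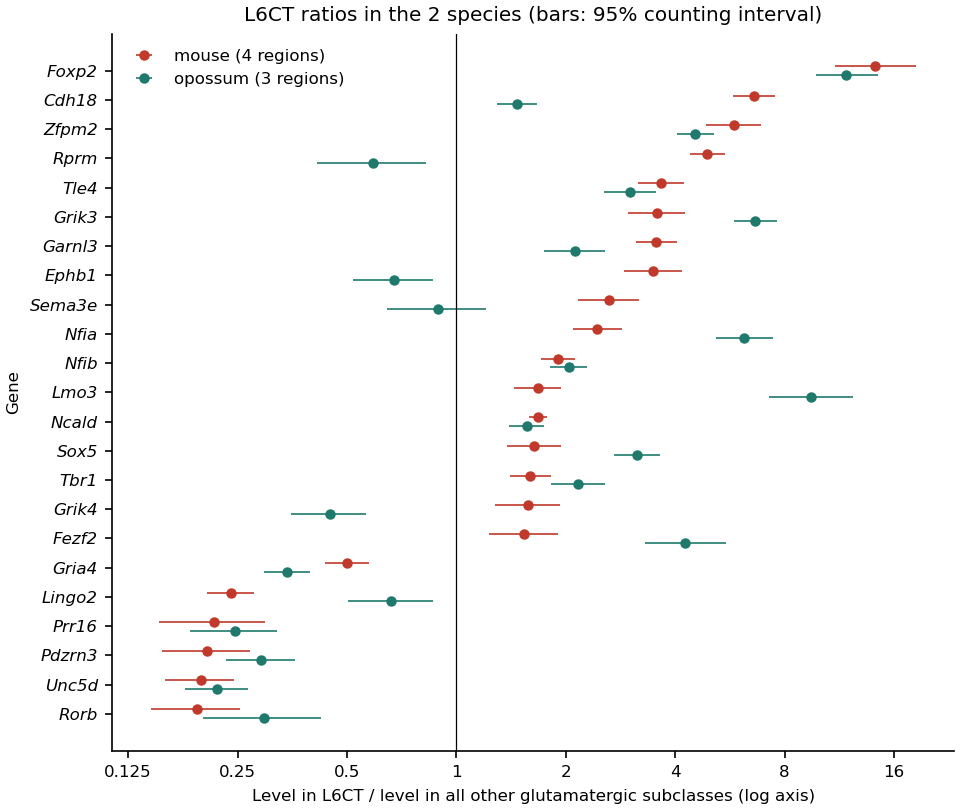
Level in L6CT over the level in all other glutamatergic subclasses, on a log x axis, for genes on the y axis in the mouse (red) and the opossum (green), with 95% counting intervals as bars. Foxp2, Zfpm2, Tle4 and Grik3 lie to the right of 1 in both species, Rorb and Unc5d to the left in both, and Rprm and Grik4 on opposite sides. The opossum comparison cells held no counterpart of mouse L6IT or L6b.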

How the data were processed

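The authors processed Stereo-seq reads with the Stereo-seq Analysis Workflow, aligned to GRCm39 for the mouse and to their own opossum genome build with longer 3′ gene ends, and deposited UMI counts per gene and segmented cell without normalization, with positions and labels. They removed cells under 50 genes or 100 UMIs and transferred labels from single-nucleus data in 3 rounds. The agreement needed was 100%, 75% and 50% for subclass labels and 100%, 100% and 75% for class labels. Sequencing totals were 147861707 UMIs over 120239 mouse cells and 84570416 over 80369 opossum cells, and no cell barcode was shared. No doublet caller was run.

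Levels are summed counts per 10000 UMIs with exact Poisson intervals, and ratios carry exact conditional binomial intervals at 95%. Genes with at least 0.5 UMIs per 10000 over glutamatergic cells were compared, and a fold of 1.5 with 1 direction in every region was needed. These glutamatergic cells included L6CT, so a gene low in the other cells could pass through L6CT. Depth came from the smallest rectangle around each region, turned by L2/3 cells, with 2 spatial units per µm. The limit for a count of 0 is 3 UMIs.

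Named genes are the 4 label markers, members of the gene lists, and genes at the ends of each comparison (the 12 highest and 12 lowest ratios to L6IT, the 12 highest and 8 lowest to the other subclasses, the 6 highest and 6 lowest of lower to upper cells). Some genes that this rule covers are not reported here. Members and lists were chosen with earlier results of these data known. Computations ran in Python 3.11.15 with scipy 1.17.1, pandas 2.3.3, numpy 2.4.6 and matplotlib 3.10.9, and the comparison was tested on simulated data.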

Additional observations from a re-analysis of the deposited data

Results flagged for a closer look

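For 9 of the 2335 genes compared in both species, the ratio of L6CT to the other glutamatergic cells was past the fold one way in the mouse, in every region, and the other way in every region of the opossum. Higher in mouse L6CT and lower in opossum L6CT were Rprm (4.91 and 0.59), Pde4d (2.04 and 0.41), Trhde (1.87 and 0.28), Mmp17 (1.79 and 0.26), Grik4 (1.57 and 0.45), Fam163b (1.52 and 0.61) and Ksr1 (1.51 and 0.54). Lower in the mouse and higher in the opossum were Tox (0.50 and 3.06) and Osbpl3 (0.63 and 1.74). Pde4d, a phosphodiesterase that breaks down cAMP, and Trhde, which cleaves thyrotropin-releasing hormone, rest on 850 and 233 UMIs in mouse L6CT and on 62 and 33 in opossum L6CT. Except for Rprm and Grik4, these genes were named for this result. The difference between species was not tested, with 1 animal of each and no counterpart of L6IT or L6b among the opossum comparison cells.

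The 73 cells with the subclass label L6CT and the class label of non-neuronal cells were left out of the L6CT cells above. They held Foxp2 at 1.36 UMIs per 10000 (0.74 to 2.27), Hs3st4 at 3.97 (2.85 to 5.39), Zfpm2 at 2.23 (1.41 to 3.34) and Mgat4c at 1.26 (0.67 to 2.15). In the 1800 other cells of non-neuronal class these genes were at 0.38, 1.28, 0.48 and 0.44. Rprm was at 4.84 (3.59 to 6.38) against 2.44. Their median depth was 645 µm.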

How the results depend on the processing

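Of 124 alternative values, 82 stayed within 1.5 times the main count or within its spread, 42 moved further, and none reversed. With cells of round 1 only (452 L6CT and 146 L6IT cells), 271 genes were higher and 155 lower than in L6IT, 178 higher and 274 lower than in the other subclasses, 171 were higher in lower L6CT cells, the Hs3st4 ratio was 8.24, the median depth 678 µm and its interquartile range 80.6 µm. The share of like neighbours was then 21.5%. Only the 452 round 1 cells counted as like neighbours there, in place of 1156, so this share is not comparable with the main one. Thinned to 300 UMIs per cell, 278 genes were higher and 154 lower than in L6IT, 142 were higher in lower and 175 in upper L6CT cells, and the ratio to L6IT was 1.70 for Rprm and 7.33 for Hs3st4. Against L6IT, a minimum of 2 UMIs per 10000 gave 10 and 20 genes, no minimum 726 and 388, a fold of 2 gave 24 and 27, and no condition on regions 175 and 174. Comparing only the lowest and uppermost tertiles of L6CT cells gave 162 genes higher in lower and 157 in upper cells. Unscaled depth gave a median of 598 µm. The like-neighbour share was 35.6% with 5 and 32.9% with 30 neighbours, and 38.3% for cells deeper than L5PT, an alternative chosen after seeing the data. Leaving out each region gave 170 to 249 genes higher and 141 to 205 lower than in L6IT, 111 to 182 higher in lower cells and 156 to 220 higher in upper cells, since fewer regions then had to share a direction. Leaving out any of the 4 regions moved at least 1 of these counts by over 1.5 times, and the largest counts against L6IT, 249 and 205, came without region 1, which held 499 of the L6CT cells. The cause of the other changes was not tested. No paired analysis was possible because each species is 1 sample.

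Low counts limit the comparison in receptors for modulators, where 5 of 36 genes could be compared, and in L6b and L5NP.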

Other observations

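Genes that differed between L6CT and L6IT differed in length. The median span of the 4602 genes compared was 37.0 kb, that of the genes higher in L6CT than in L6IT was 58.2 kb, and that of the genes lower in L6CT was 247 kb, of which 72.9% were over 100 kb against 24.4% of all. Relative to the other glutamatergic cells the medians were 128 kb for the higher and 198 kb for the lower genes. Rprm spans 1.46 kb, Hs3st4 416 kb, Cdh18 925 kb and Kcnip4 1135 kb.

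Between L6CT_C and L6CT_B, Lrrtm4 was at 6.91 and 2.19 UMIs per 10000, a ratio of 3.16 (2.40 to 4.14), Nkain2 at 10.9 and 3.96 (2.76, 2.23 to 3.40) and Lrp1b at 9.51 and 3.51 (2.71, 2.16 to 3.39), each higher in L6CT_C in every region. The protocadherin Pcdh15 was at 2.99 and 0.81 (3.68, 2.37 to 5.65). These genes were named after their values were seen, and the values rest on 38 to 139 UMIs in the 67 cells of L6CT_C.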
